A study of Mus musculus with 6 samples.

Results

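A set of 10 genes of innate nucleic acid and microbial sensing were followed in brown preadipocytes with and without FGF8 pretreatment. They are the cytosolic sensors Ifih1, Dhx58 and Zbp1, the Toll-like receptors Tlr2, Tlr3 and Tlr4, the NOD-like receptor Nod1, and the signalling proteins Mavs, Myd88 and Tbk1. These 10 genes were taken by symbol from the 26264 gene symbols counted in every library, and all 10 were found. They were chosen with earlier results of these data known, so their comparison with all genes is a description only. The RNA came from immortalized mouse brown preadipocytes, made from interscapular brown fat stromal vascular cells of C57BL/6N wild-type mice by retroviral transfer of the SV40 large T antigen. The sample titles do not give the number of cell lines. For 48 h the cells either received FGF8 at 5.5 nM or stayed untreated, and they were collected at the end of that time (day 0) or after 3 or 9 days of adipogenic differentiation. All cells taken past day 0 received the same cocktail of insulin, T3, IBMX, dexamethasone, indomethacin and rosiglitazone, followed by insulin, T3 and rosiglitazone. There was 1 library for each of the 6 conditions, with 16403254 to 38551551 counts per library.

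In the labels the final collection carries the number 7, counted in days on differentiation medium, which is taken here as day 9 with the 2 days of induction included. The methods speak of vehicle-treated controls and the labels of untreated ones. The growth protocol attached to the samples describes primary white preadipocytes, whereas the sample titles describe immortalized brown cells, and the latter name is used here. With a single library per condition, no contrast of FGF8 with untreated cells within a day has a replicate check, and intervals given with such differences cover counting error only.

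Cells recognise foreign or misplaced nucleic acid through dedicated receptors. MDA5 (encoded by Ifih1) binds long double-stranded RNA in the cytosol, LGP2 (Dhx58) modulates its activity, and ZBP1 binds left-handed Z-form nucleic acid, whereas TLR3 meets double-stranded RNA in endosomes, TLR2 and TLR4 recognise bacterial lipoproteins and lipopolysaccharide, and NOD1 detects peptidoglycan fragments. Their signals run through adaptors such as MAVS and MyD88 and kinases such as TBK1 to interferon and cytokine genes, and several of the sensors are themselves interferon-stimulated. Preadipocytes and adipocytes carry parts of this machinery, including TLR4.

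The promoters of the sensors are shown because interferon and NF-kappaB response elements are the textbook route by which such genes are induced. The 250 bases before the canonical start of each gene were read from GRCm39 with GENCODE M39 and searched on both strands for 3 motifs. The interferon-stimulated response element (ISRE) was searched as GAAANNGAAA, the gamma-activated site (GAS) as TTCNNNGAA, and the NF-kappaB element by its 10-letter consensus. Of 21756 protein-coding promoters, 723 (3.32%) held the ISRE letters, 1675 (7.7%) the GAS letters and 1659 (7.63%) the NF-kappaB consensus. The sequences below run 5′ to 3′ on the strand of the gene, which is the minus strand for all 4, and end at the base before the start. Capitals mark every motif match. Zbp1 spans chr2:173060725-173060974, Ifih1 chr2:62476608-62476857, Dhx58 chr11:100595098-100595347 and Tlr2 chr3:83749075-83749324.
Zbp1: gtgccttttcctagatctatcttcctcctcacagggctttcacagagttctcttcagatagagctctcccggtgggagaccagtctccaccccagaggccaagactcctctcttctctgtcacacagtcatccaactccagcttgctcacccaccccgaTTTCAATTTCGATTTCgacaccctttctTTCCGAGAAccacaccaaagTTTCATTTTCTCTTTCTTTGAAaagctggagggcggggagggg
Ifih1: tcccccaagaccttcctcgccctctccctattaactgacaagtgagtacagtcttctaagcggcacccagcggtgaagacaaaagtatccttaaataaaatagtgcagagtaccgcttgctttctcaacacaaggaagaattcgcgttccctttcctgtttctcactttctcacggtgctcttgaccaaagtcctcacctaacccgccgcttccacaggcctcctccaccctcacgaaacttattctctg
Dhx58: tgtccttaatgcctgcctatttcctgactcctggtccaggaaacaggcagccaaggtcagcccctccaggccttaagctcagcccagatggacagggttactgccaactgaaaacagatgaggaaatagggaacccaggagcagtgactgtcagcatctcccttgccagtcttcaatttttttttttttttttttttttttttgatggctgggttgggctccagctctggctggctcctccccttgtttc
Tlr2: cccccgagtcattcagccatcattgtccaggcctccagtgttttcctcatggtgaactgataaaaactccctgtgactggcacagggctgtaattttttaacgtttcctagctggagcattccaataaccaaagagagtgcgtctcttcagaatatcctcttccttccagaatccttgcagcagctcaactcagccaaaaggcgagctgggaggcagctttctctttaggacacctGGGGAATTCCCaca

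Of the 10 genes, 2 had an ISRE match in this window, 1 a GAS match and 2 an NF-kappaB match. Zbp1 had the most matches. Its 4 ISRE matches lay on the opposite strand at 91 to 82, 85 to 76, 43 to 34 and 37 to 28 bases before the start, so that they form 2 overlapping pairs. Its 2 GAS matches lay at 63 to 55 and 30 to 22 bases before the start, the latter overlapping an ISRE match. Tbk1 had 1 ISRE match, GAAACTGAAA, at 214 to 205 bases before its start on chromosome 10, in a window of which 95 bases lie in an exon of another Tbk1 transcript. In Tlr2, 2 overlapping NF-kappaB matches, GGGGAATTCC and GGGAATTCCC, lay at 14 to 5 and 13 to 4 bases before the start. The Tlr3 match, GGGAGTTTCC, lay at 204 to 195 bases before the start, in a window of which 190 bases belong to an exon of another Tlr3 transcript. The windows of Ifih1, Dhx58, Tlr4, Nod1, Mavs and Myd88 held none of these letters (250 bases of the Mavs window and 43 of the Nod1 window lie in an exon of another transcript of the same gene), which describes these windows and nothing beyond them. Whether any of these matches bears on the FGF8 differences given below was not tested.

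In the data as a whole, FGF8-pretreated cells had lower levels of most of these genes than untreated cells, and Mavs stood apart with higher levels at the later days. Differences are given as log2(normalized count + 1) of the FGF8 library minus the untreated library, where a normalized count is a count divided by the size factor of its library. Background shares are over all genes averaging 20 or more normalized counts in the libraries compared. At day 0, all 10 genes were lower in the FGF8 library (median difference -1.44, all genes 0.05) and 6 of 10 were at least 2-fold lower, compared with 10.8% of 12657 genes. In the other direction, 0 of 10 and 7.27% of all genes reached a 2-fold difference. At day 3, 8 of 10 were lower (median -0.84, all genes 0.08) and 4 of 10 were at least 2-fold lower, compared with 12.1% of 12892 genes, while 0 of 10 and 3.8% of all genes reached that size upward. At day 9, 8 of 10 were lower (median -0.60, all genes 0.08) and 3 of 10 were at least 2-fold lower, compared with 8.74% of 13070 genes, while 0 of 10 and 1.12% of all genes reached it upward. The 3 cytosolic sensors had medians of -2.45, -0.74 and -1.07 at day 0, 3 and 9, the 4 receptors -1.44, -1.39 and -0.69, and the 3 signalling proteins -0.60, 0.02 and 0.03. The same 8 genes, all but Mavs and Tbk1, were lower on each of the 3 days, which held for 21.6% of 13256 genes. Zbp1 and Tlr2 were at least 2-fold lower on each day, compared with 3.79% of all genes, although Tlr2 at day 0 lay at the limit (2.01-fold) and passed it no longer when libraries were scaled by total counts. Whether fewer cells held a transcript or each cell held less of it cannot be told apart in bulk RNA.

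**Figure D1:**
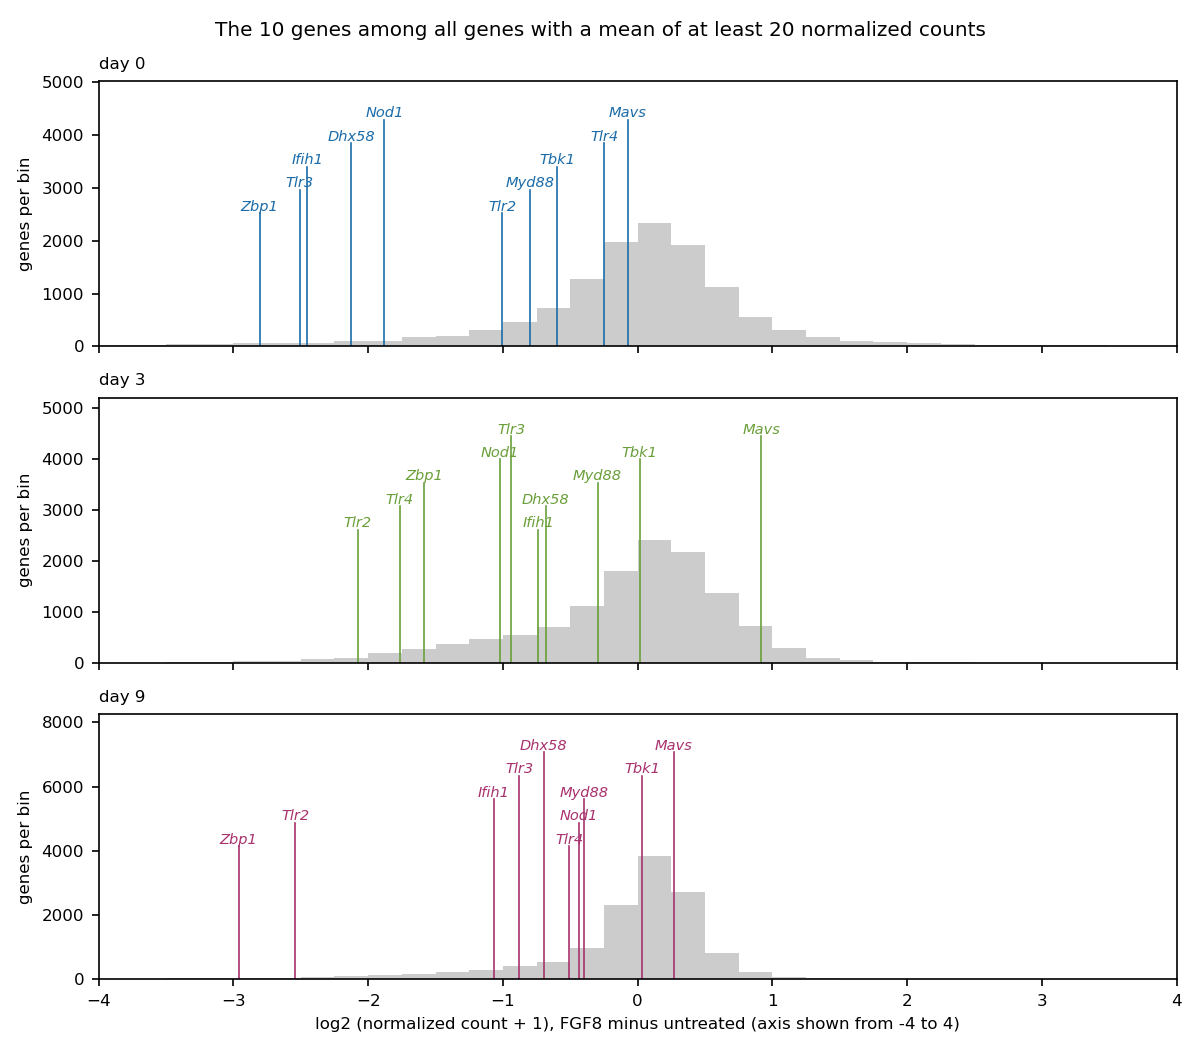
The 10 genes on the distribution of all genes. Grey bars count genes per bin of log2(normalized count + 1), FGF8 minus untreated (x axis, from -4 to 4), at day 0, 3 and 9 from top to bottom, for genes averaging 20 or more normalized counts, and each vertical line is 1 of the 10 genes (line height only separates the labels). The lines spread from Zbp1 at -2.81 to Mavs at -0.07 at day 0, and at day 9 Zbp1 (-2.96) and Tlr2 (-2.54) stand in the left tail while 8 genes lie between -1.07 and 0.27.

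Across the 3 days together, Zbp1 was the 1 member that passed the test. The quasi-likelihood test of edgeR was run with the day as blocking factor, the 3 days standing in for replicates, so that an unequal response over the days enters the error. With Benjamini-Hochberg adjustment over 14569 genes, it called 182 genes lower (1.25%) and 3 higher (0.0206%) in FGF8 libraries. Of the 10 members, 1 was called lower and 0 higher, 7 had an unadjusted p under 0.05 (23.26% of all genes), and 9 had a negative estimate, with a median log2 fold change of -1.15 (all genes 0.04). Without the day 0 libraries the same edgeR fit called 7 members lower, and 11.6% of all genes, whereas without the day 3 or the day 9 libraries it called 0 members. The shares of all genes called without day 3 or day 9 are not given here, so that 0 says nothing particular about the members. DESeq2's Wald test with the same design called 6 members lower, and 8.92% of all genes. The number of members called therefore depended on the libraries and on the tool, and the values for each gene are given with it.

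Zbp1 (chr2:173033815-173060724, minus strand), the Z-nucleic acid sensor that also triggers necroptosis, had the widest difference of the 10 genes at day 0, at day 9 and in the shared fit, and Tlr2 and Tlr4 differed more at day 3. The untreated libraries held 3453, 1826 and 2357 normalized counts of Zbp1 at day 0, 3 and 9, and the FGF8 libraries 492.9, 608.6 and 301.6. Every FGF8 library lay below every untreated library, a pattern that 4 of the 10 genes (Zbp1, Ifih1, Dhx58 and Myd88) and 5.36% of 13256 genes showed. The difference was -2.81 at day 0 (95% counting interval -2.97 to -2.65), -1.58 at day 3 (-1.71 to -1.46) and -2.96 at day 9 (-3.13 to -2.81), which are 6.99-, 3.00- and 7.79-fold lower. At day 9, 0.773% of all genes had a more negative difference. In the shared fit Zbp1 fell by 2.48 on the log2 scale (SE 0.307, adjusted p = 0.0479, edgeR quasi-likelihood test with Benjamini-Hochberg adjustment), being lower in 3 of 3 pairs. That p lay close to the threshold, and over 8 fits it ranged from 4.0e-11 to 0.718, with 0.186 without day 3, 0.287 without day 9 and 0.0561 with DESeq2 size factors in edgeR. The 4 ISRE and 2 GAS matches printed above belong to this gene.

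Ifih1 (chr2:62425714-62476607, minus strand), which encodes the double-stranded RNA sensor MDA5, was far lower at day 0 and less so later. Untreated libraries held 5698, 2719 and 2053 normalized counts at day 0, 3 and 9, and FGF8 libraries 1040, 1630 and 978.8. The untreated values declined over the 3 days while those after FGF8 stayed between 978.8 and 1630, and the ranges did not overlap. The difference was -2.45 at day 0 (-2.56 to -2.35), -0.74 at day 3 (-0.82 to -0.65) and -1.07 at day 9 (-1.17 to -0.97). The shared estimate was -1.43 (SE 0.363, edgeR quasi-likelihood test, adjusted p = 0.127, lower in 3 of 3 pairs) and did not pass. Over 8 fits its adjusted p ran from 0.00255 with DESeq2 to 0.9998 without the day block.

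Dhx58 (chr11:100585710-100595097, minus strand), the gene of the MDA5 regulator LGP2, followed Ifih1 closely. Its normalized counts were 5682, 2612 and 2190 in untreated libraries and 1301, 1626 and 1349 in FGF8 libraries at day 0, 3 and 9. All 3 FGF8 values were below the lowest untreated value. The difference was -2.13 at day 0 (-2.23 to -2.03), -0.68 at day 3 (-0.77 to -0.60) and -0.70 at day 9 (-0.79 to -0.61). Dhx58 had a shared estimate of -1.18 (SE 0.333, edgeR quasi-likelihood test, adjusted p = 0.145, range over 8 fits 0.0118 to 0.9998).

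**Figure D2:**
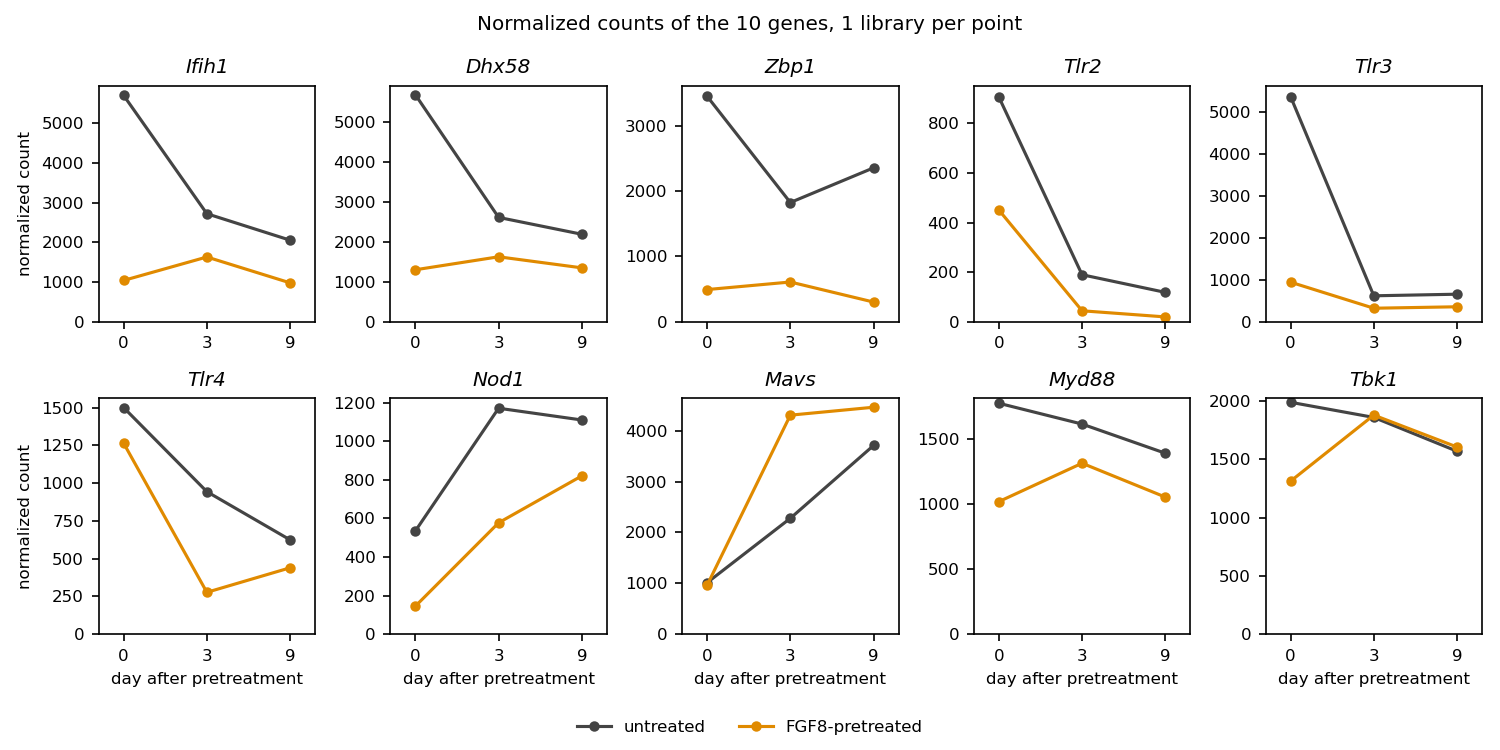
Normalized counts (y axis, from 0, own scale for each gene) of the 10 genes against the day after pretreatment, with 1 library per point, grey for untreated and orange for FGF8-pretreated. For Ifih1, Dhx58, Zbp1 and Myd88 all FGF8 points lie below all untreated points, whereas for Mavs the FGF8 points at day 3 (4305) and day 9 (4461) lie above the untreated ones (2277 and 3709).

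Among the membrane receptors and NOD1, each gene was lower in the FGF8 library on each day, and the day of the largest difference varied. Tlr3 (chr8:45848702-45864117, minus strand), the endosomal double-stranded RNA receptor, had 5367, 618.5 and 656.6 normalized counts in untreated libraries and 943.5, 322.2 and 356.9 in FGF8 libraries at day 0, 3 and 9. The untreated day 0 library stood far above the other 5. The difference was -2.51 at day 0 (-2.62 to -2.39), -0.94 at day 3 (-1.13 to -0.75) and -0.88 at day 9 (-1.05 to -0.71). The shared estimate of Tlr3 was -1.46 (SE 0.374, edgeR quasi-likelihood test, adjusted p = 0.129, range over 8 fits 0.0028 to 0.9998).

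Tlr2 (chr3:83743576-83749074, minus strand, 1 exon), the lipoprotein receptor that pairs with TLR1 or TLR6, had the opposite course, with a difference of larger size on later days. The untreated libraries held 906.3, 189.6 and 118.5 normalized counts and the FGF8 libraries 450.6, 44.22 and 19.51. Levels declined with differentiation in both treatments, so the day 0 FGF8 library exceeded the later untreated ones. The difference was -1.01 at day 0 (-1.20 to -0.82), -2.08 at day 3 (-2.55 to -1.67) and -2.54 at day 9 (-3.29 to -1.98), where the wide interval reflects 24 counts in the FGF8 library against 167. The shared estimate was -1.87 (SE 0.363, edgeR quasi-likelihood test, adjusted p = 0.0895, range over 8 fits 0.000112 to 0.9998).

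Tlr4 (chr4:66745783-66849936, plus strand), the lipopolysaccharide receptor, differed chiefly at day 3. Its normalized counts were 1500, 943.1 and 623.9 in untreated libraries and 1264, 276.6 and 439 in FGF8 libraries. The difference was -0.25 at day 0 (-0.37 to -0.12), -1.77 at day 3 (-1.95 to -1.59) and -0.51 at day 9 (-0.66 to -0.35). At day 3, 3.34% of all genes had a more negative difference, compared with 30.4% at day 0. The shared estimate of -0.85 (SE 0.341) did not pass (edgeR quasi-likelihood test, adjusted p = 0.223, range over 8 fits 0.0391 to 0.9998).

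Nod1 (chr6:54900927-54949647, minus strand), the cytosolic peptidoglycan receptor, had its largest difference at day 0. Untreated libraries held 534.7, 1171 and 1110 normalized counts and FGF8 libraries 144.7, 577 and 820.3. Both series were lowest at day 0, and the FGF8 library was below the untreated one on each day. The difference was -1.88 at day 0 (-2.20 to -1.58), -1.02 at day 3 (-1.16 to -0.88) and -0.44 at day 9 (-0.55 to -0.32). Nod1 had a shared estimate of -1.11 (SE 0.306, edgeR quasi-likelihood test, adjusted p = 0.139, range over 8 fits 0.0151 to 0.9998).

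Of the signalling proteins, none was 2-fold lower or higher on any day. Myd88 (chr9:119165000-119170486, minus strand), the adaptor of TLR2, TLR4 and interleukin receptors, had 1774, 1614 and 1390 normalized counts in untreated libraries and 1018, 1313 and 1053 in FGF8 libraries. The difference was -0.80 at day 0 (-0.93 to -0.67), -0.30 at day 3 (-0.40 to -0.19) and -0.40 at day 9 (-0.50 to -0.30). The shared estimate was -0.52 (SE 0.152, edgeR quasi-likelihood test, adjusted p = 0.151, range over 8 fits 0.106 to 0.9998). Myd88 shares 628 exonic bases (16.15% of its exon length) with Acaa1a on the other strand, and as the strand setting of the counting is not given in the sources used here, reads there may be assigned to either gene. Acaa1a, a peroxisomal thiolase gene, differed by -0.52, 0.47 and 0.12 at day 0, 3 and 9. No other member shared exonic bases with a gene in the count tables.

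Tbk1 (chr10:121382360-121422848, minus strand), the kinase that activates IRF3 downstream of MAVS, STING and TRIF, differed beyond counting error at day 0 and not at the later days. It had 1989, 1859 and 1569 normalized counts in untreated libraries and 1312, 1879 and 1605 in FGF8 libraries. The difference was -0.60 at day 0 (-0.72 to -0.48), 0.02 at day 3 (-0.08 to 0.11) and 0.03 at day 9 (-0.06 to 0.12). The 2 later values changed sign with the scaling of the libraries. The shared estimate was -0.20 (SE 0.175, edgeR quasi-likelihood test, adjusted p = 0.52, range over 8 fits 0.52 to 0.9998).

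Mavs (chr2:131075442-131096740, plus strand), the mitochondrial adaptor of MDA5 and RIG-I, was the member with higher values after FGF8. Untreated libraries held 1011, 2277 and 3709 normalized counts and FGF8 libraries 960.2, 4305 and 4461. The libraries were alike at day 0, and at day 3 the FGF8 library reached a level that the untreated one did not reach by day 9. The difference was -0.07 at day 0 (-0.23 to 0.08), 0.92 at day 3 (0.84 to 1.00) and 0.27 at day 9 (0.21 to 0.32). At day 3, 94.9% of all genes had a lower difference. The shared estimate of 0.35 (SE 0.211, edgeR quasi-likelihood test, adjusted p = 0.364, range over 8 fits 0.0728 to 0.9998) did not pass, with 2 of 3 pairs higher.

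**Figure D3:**
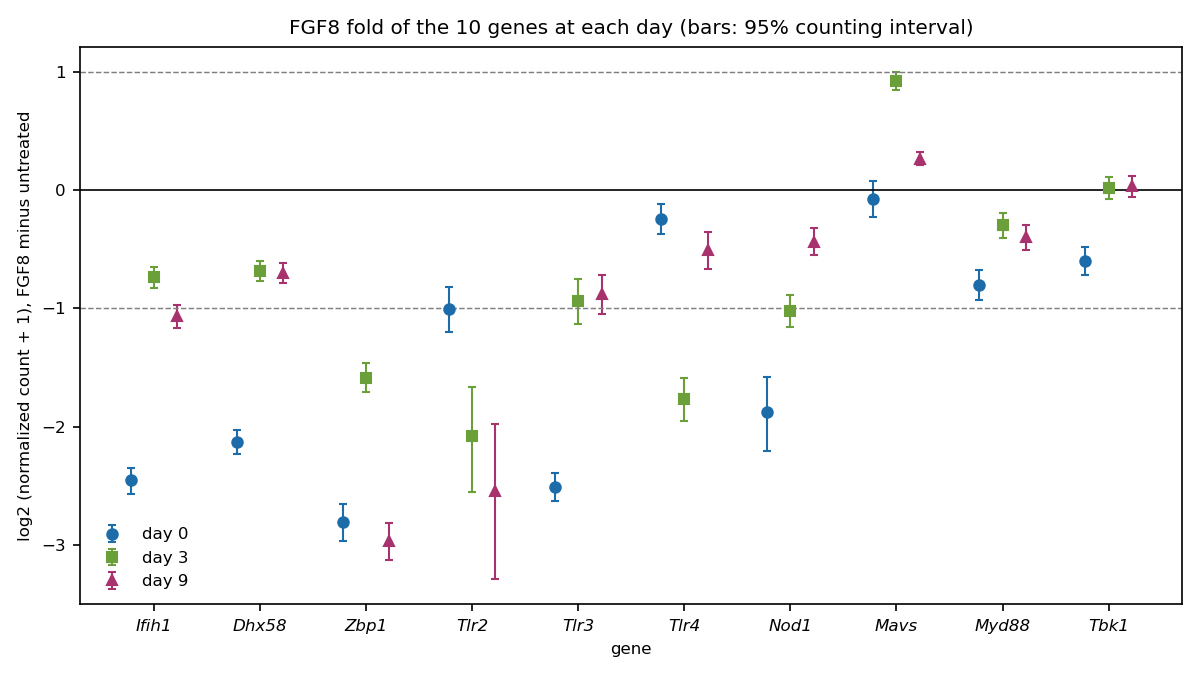
Difference of log2(normalized count + 1), FGF8 minus untreated (y axis), for each of the 10 genes (x axis) at day 0 (circles), day 3 (squares) and day 9 (triangles). Bars are 95% counting intervals from 1 library each, and dashed lines mark a 2-fold difference. Zbp1 and Tlr2 lie below the lower dashed line on all 3 days, and only Mavs lies clearly above 0, at 0.92 (day 3) and 0.27 (day 9).

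The same 6 libraries also show how the genes moved with differentiation, using the 2 treatments as the pair of libraries per day. The days were compared in the same edgeR fit with Benjamini-Hochberg adjustment, and since these comparisons share libraries they are not independent of each other. Between day 0 and day 3, 2 of 10 members were called lower (19.8% of all genes) and 2 higher (26.2%). Tlr2 fell by 2.78 on the log2 scale (SE 0.447, adjusted p = 0.0097, edgeR, 5 fits 4.43e-08 to 0.127) and Tlr3 fell by 2.35 (SE 0.465, adjusted p = 0.0159, edgeR, 5 fits 1.52e-06 to 0.0677). Mavs rose by 1.74 (SE 0.266, adjusted p = 0.00874, edgeR, 5 fits 2.03e-06 to 0.0163) and Nod1 by 1.56 (SE 0.376, adjusted p = 0.0261, edgeR, 5 fits 0.00119 to 0.159). Each of these 4 genes moved in the same direction in both treatments. These counts are near or below the background shares.

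Between day 0 and day 9, 3 of 10 members were called lower (24.8% of all genes) and 2 higher (29.2%). Tlr2 fell by 3.66 (SE 0.468, adjusted p = 0.00452), Tlr3 by 2.25 (SE 0.464, adjusted p = 0.0144) and Tlr4 by 1.37 (SE 0.412, adjusted p = 0.0409), while Mavs rose by 2.07 (SE 0.266, adjusted p = 0.00455) and Nod1 by 1.79 (SE 0.382, adjusted p = 0.0158), all by the edgeR quasi-likelihood test. Over 5 fits the adjusted p ran from 9.69e-13 to 0.062 for Tlr2, 5.05e-06 to 0.062 for Tlr3, 0.00434 to 0.121 for Tlr4, 5.28e-09 to 0.00924 for Mavs and 0.00013 to 0.123 for Nod1 (edgeR or DESeq2). Without the treatment block the adjusted p-values of Tlr2, Tlr3, Tlr4 and Nod1 rose to 0.062, 0.062, 0.121 and 0.123. Between day 3 and day 9, edgeR called 0 members lower (0.00686% of all genes) and 0 higher (0.0618%), 0 members had an unadjusted p under 0.05, and DESeq2 called 0 as well. The counts called between day 0 and day 9 are also near or below the background shares. By their values, Tlr2, Tlr3 and Tlr4 were highest in day 0 cells, and Mavs and Nod1 at later days, in both treatments.

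Size within each treatment differed for some of these genes. Tlr2 was 4.76-fold lower at day 3 than at day 0 in untreated libraries and 9.99-fold lower in FGF8 libraries. Tlr3 was 8.67-fold lower in untreated libraries and 2.92-fold lower in FGF8 libraries, where it began from a lower level. Mavs was 2.25-fold higher in untreated libraries and 4.48-fold higher in FGF8 libraries, and Nod1 2.19-fold and 3.97-fold. With 1 library per value, none of these contrasts between treatments was tested.

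Per length of merged exons, Dhx58 had the highest level of the 10 genes in all 6 libraries, from 1684 normalized counts per kilobase in untreated cells at day 0 to 385.6 in FGF8 cells at day 0. In untreated cells at day 0 the order went on with Tlr3 (1004), Zbp1 (804.4), Ifih1 (633.6), Myd88 (456.4), Tbk1 (351), Tlr4 (214), Tlr2 (164.8), Nod1 (90.21) and Mavs (88.87). The last 2 were nearly level, and with 1 library no spread can be given for any neighbours. In FGF8 cells at day 9 the order was Dhx58 (400.1), Mavs (392.2), Tbk1 (283.2), Myd88 (270.8), Nod1 (138.4), Ifih1 (108.9), Zbp1 (70.25), Tlr3 (66.73), Tlr4 (62.63) and Tlr2 (3.55). Mavs thus moved from place 10 in untreated day 0 cells to place 2 in FGF8 cells at day 3 and day 9. Zbp1 held place 3, 2 and 2 in untreated cells and 7, 6 and 7 after FGF8. Tlr2 was in place 10 at day 3 and day 9 in both treatments. The order depended on the length used. With the longest transcript in place of merged exons, 3 to 7 of 10 genes kept their place within a library, Mavs went from place 9 in untreated day 0 cells to place 3 in FGF8 cells at day 3 and day 9, and Dhx58 was still first in all 6 libraries.

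**Figure D4:**
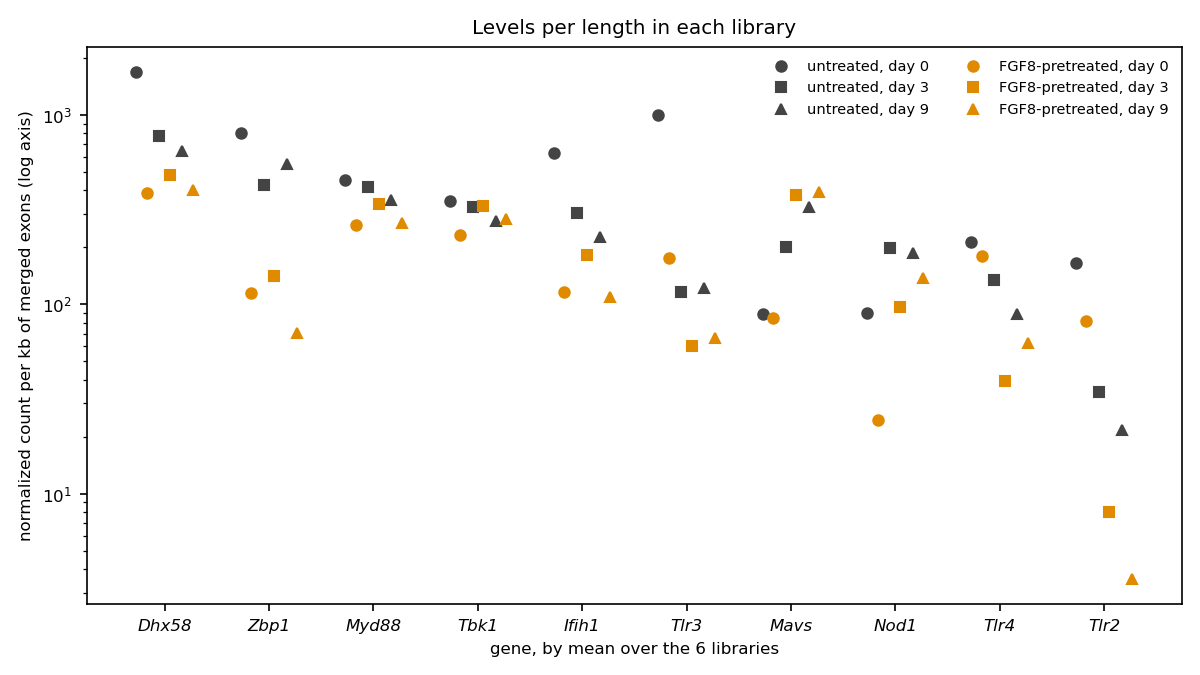
Normalized count per kilobase of merged exons (y axis, log scale) of the 10 genes, ordered by their mean over the 6 libraries, with 1 symbol per library. Dhx58 is highest in each library, and Tlr2 spans the widest range, from 164.8 in untreated cells at day 0 to 3.55 in FGF8 cells at day 9.

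Likeness between members was described by Pearson's r of log2(normalized count + 1) over the 6 libraries, which share treatment, day and scaling, so no p is given. Ifih1 and Dhx58 were most alike (r = 0.986), followed by Ifih1 and Myd88 (0.964). Zbp1 was most like Ifih1 (0.910), Tlr4 most like Tlr2 (0.910), and Tlr3 most like Tlr2 (0.871). Tbk1 was most like Myd88 (0.817) and Nod1 most like Mavs (0.664). Mavs ran opposite to Tlr2 (-0.927) and Tlr4 (-0.912). Of 13256 genes, the one most like a member was Mn1 for Ifih1 (0.991), Gbp2 for Dhx58 (0.998), Gm16364 for Zbp1 (0.992), Rbms3 for Tlr2 (0.998), Itgb8 for Tlr3 (0.990), Armc7 for Tlr4 (0.992), Fas for Nod1 (0.999), Mrpl51 for Mavs (0.998) and Stat2 for Myd88 (0.997).

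The wider pathway was read from 116 genes in 11 lists around the members. At day 0, 23 of the 86 that averaged 20 or more normalized counts were at least 2-fold lower (26.7%) and 0 higher, with a median of -0.15. At day 3 these were 18 of 87 (20.7%), 0 and -0.25, and at day 9 they were 9 of 84 (10.7%), 1 and -0.13. Among all genes, 10.8%, 12.1% and 8.74% were that much lower, so the day 9 share was near the background. In the shared edgeR fit, 2 of 93 pathway genes tested were called lower (1.25% of all genes) and 0 higher (0.0206%). An unadjusted p under 0.05 was found for 29 (23.26% of all genes), and 66 had a negative estimate (median -0.27, all genes 0.04). The counts called and at an unadjusted p under 0.05 were not far above the shares of all genes. Both called genes are chemokines. Cxcl1 fell by 2.35 on the log2 scale (SE 0.251, adjusted p = 0.0448) and Ccl5 by 2.01 (SE 0.224, adjusted p = 0.0451) by the edgeR quasi-likelihood test after Benjamini-Hochberg adjustment, each lower in 3 of 3 pairs. The count of pathway genes called lower was 18 without the day 0 libraries, 0 without those of day 3 or day 9, and 16 with DESeq2, in fits that called 11.6% and 8.92% of all genes lower without day 0 and with DESeq2. For the fits without day 3 or day 9 that share is not given here, so the 0 is not read against a background.

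The partners of Ifih1, Dhx58 and Zbp1 gave a divided picture. Of 12 other cytosolic sensors and STING, 11 were measured at each day, of which 4 (day 0), 2 (day 3) and 2 (day 9) passed 2-fold downward, and 0 of 12 were called in the shared fit (6 at an unadjusted p under 0.05). RIG-I, listed as Ddx58, differed by -1.58, -0.40 and -0.77 at day 0, 3 and 9, a course like that of Ifih1, and the helicase gene Ddx60 by -2.47, -1.09 and -1.38. Sting1, the adaptor of cytosolic DNA sensing, differed by -0.06, -1.51 and -1.95. Of 8 ubiquitin ligases and deubiquitinases acting on the sensors, 2, 0 and 0 were at least 2-fold lower, among them Trim21 with -1.54 at day 0. Of 6 partners of ZBP1 in cell death, 0 were at least 2-fold lower or higher on any day, with Ripk3 at 0.74, -0.57 and 0.13 and Mlkl, the executioner of necroptosis, at -0.82, -0.52 and -0.19. Of 11 nucleases that limit sensor ligands, 7, 8 and 9 reached a mean of 20, and 2, 1 and 1 of these were at least 2-fold lower. Samhd1, a hydrolase of deoxynucleotides, differed by -1.80, -0.94 and -0.94.

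Around the Toll-like receptors, Lbp encodes the lipopolysaccharide-binding protein that delivers ligand to TLR4. It differed by -1.44, -2.09 and -3.40 at day 0, 3 and 9. Of the 11 accessory genes, 8, 9 and 9 reached a mean of 20, and 1, 3 and 2 of these were at least 2-fold lower. Of 9 other Toll-like receptors, 2, 4 and 2 reached a mean of 20, and 2, 2 and 0 of these were at least 2-fold lower. Of 12 NOD-like receptor genes and partners, 5, 3 and 2 reached a mean of 20, and 3, 1 and 0 of these were at least 2-fold lower. Ripk2, the kinase of NOD1, differed by 0.03, 0.07 and -0.12. Among 16 adaptors and proximal kinases, 14, 14 and 13 reached a mean of 20, and 2, 3 and 0 of these were at least 2-fold lower. Ticam1, the TLR3 adaptor, differed by -1.85, -0.39 and -0.07 and Irak3 by -1.73, -1.55 and -0.70.

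Downstream of the members, differences were given for kinase scaffolds, transcription factors and induced cytokines. Of 11 TBK1 scaffolds, IKK subunits and TRAF3, 0, 1 and 1 were at least 2-fold lower, the 1 gene being Ikbke, which encodes a kinase related to TBK1 (-0.63, -1.38 and -1.06). Tank, a TBK1 scaffold, differed by 0.37, 0.49 and 0.38. Of 10 downstream transcription factors, 3, 3 and 1 were at least 2-fold lower, with Irf7 at -2.71, -1.30 and -2.01, and Irf5 was 1 of them at day 0 and day 3 (-1.62 and -1.45) and the 1 gene at least 2-fold higher at day 9 (2.28). Of 10 interferons and cytokines, 4, 3 and 3 reached a mean of 20, and 4, 2 and 2 were at least 2-fold lower. Cxcl10, an interferon-induced chemokine, differed by -3.51, -0.95 and -0.67, with 4824 normalized counts in untreated and 421.2 in FGF8 cells at day 0. Ifnb1, named after its values were seen, had 28 counts without FGF8 and 0 with FGF8 at day 0, where 0 allows up to 3 counts. At day 3 and day 9 Ifnb1 had 2 and 10 counts without FGF8 and 1 and 2 with FGF8, with counting intervals that included 0.

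**Figure D5:**
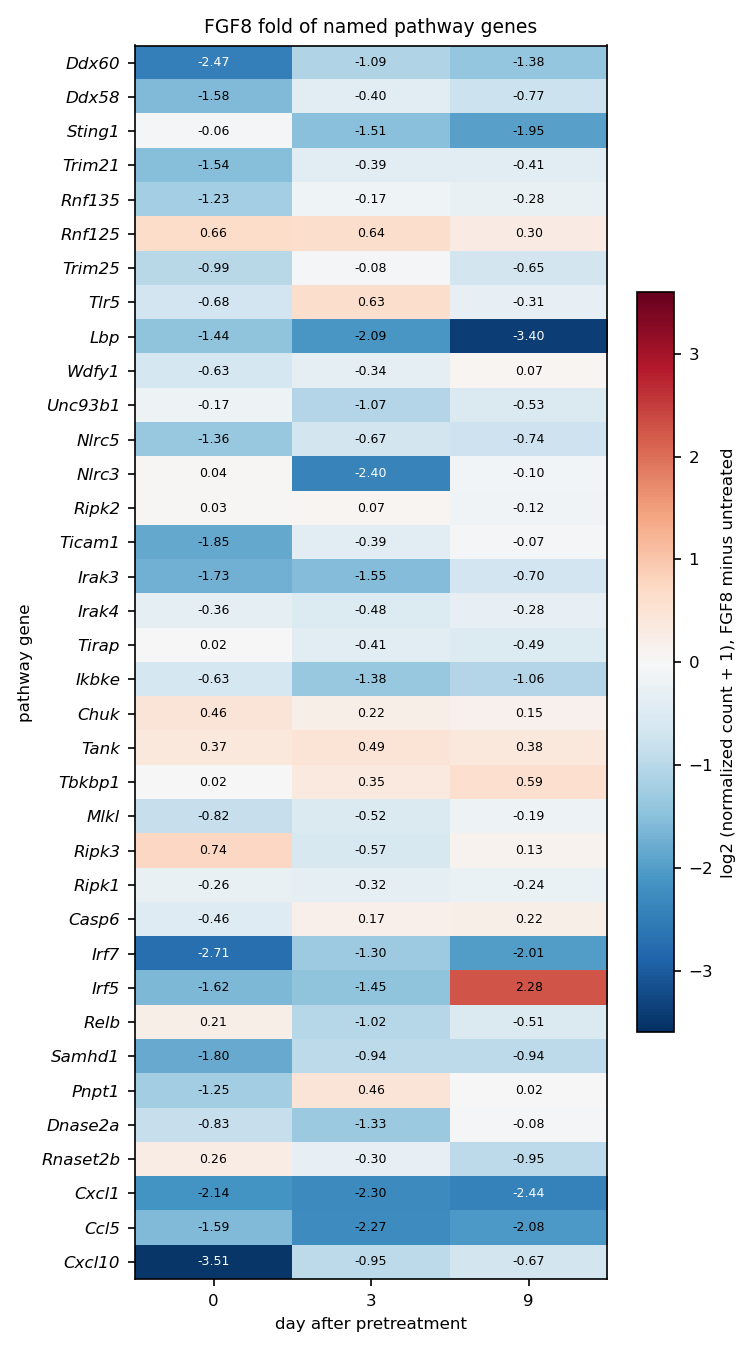
Difference of log2(normalized count + 1), FGF8 minus untreated, printed in each cell for 36 pathway genes (rows) at day 0, 3 and 9 (columns), blue for lower and red for higher in FGF8 libraries. Cxcl1 and Ccl5 are below -1 in each column, and Irf5 turns from -1.62 at day 0 to 2.28 at day 9.

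Marker genes of the cells moved with the treatment and the day as well. Preadipocyte markers had summed normalized counts of 133100, 39320 and 31050 in untreated libraries and 34240, 10730 and 7148 in FGF8 libraries, and 3 of 7 tested (Pdgfra, Pdgfrb and Dlk1) were called lower in the shared edgeR fit. Pdgfra and Ly6a made up most of these sums in all libraries but the FGF8 library of day 0. At day 0 6 of the 8 markers were lower after FGF8, while Pi16 (69.0 and 541.5 normalized counts in untreated and FGF8 cells) and Thy1 (2773 and 4427) were higher. Adipocyte markers summed to 8804, 371000 and 513700 in untreated libraries and 2425, 648100 and 596500 in FGF8 libraries, and brown adipocyte markers to 417.2, 7109 and 133700 and to 1651, 20120 and 162600. At day 0 the adipocyte sum was mostly Lpl (8251 and 2025 normalized counts). Of 4 adipocyte markers averaging 20 or more at day 0, 3 were lower after FGF8, and Fabp4 had 164.5 and 178. At day 0 the higher brown sum came mostly from Ucp1 (0 and 1328 normalized counts). Prdm16 (42.6 and 188.2), Elovl3 (2.94 and 23.0) and Ppara (19.1 and 37.1) were higher as well, although the counting interval of Ppara included 0. Dio2 (304.1 and 60.2) and Ppargc1a (48.5 and 15.4) were lower after FGF8, and Cidea was at 0 in both. Macrophage markers, checked because macrophages carry Tlr2 and Tlr4, summed to 126.3, 138.7 and 161.1 normalized counts in untreated and 65.3, 101.8 and 116.3 in FGF8 libraries, with 2 of 15 (Csf1r and Cd68) averaging over 20 normalized counts and Adgre1, C1qa, C1qb and C1qc at 0 in all 6 libraries. Csf1r had 45.5, 35.6 and 43.3 normalized counts in untreated and 5.12, 6.32 and 10.6 in FGF8 libraries, and Cd68 39.7, 81.5 and 100.1 against 35.9, 91.3 and 100.8. Dendritic cell and B cell markers summed to 4.07 to 26.4 normalized counts. Endothelial markers summed to 1630, 212.5 and 200.9 normalized counts in untreated and 73.0, 35.1 and 35.8 in FGF8 libraries, mostly Kdr and Tek, of which Tek was called lower. The other endothelial markers had few counts and did not all go that way. At day 0, Pecam1 had 1 count in untreated and 10 in FGF8 cells, Cdh5 3 and 7, and Emcn 7 and 0. Cldn5 and Tie1 had at most 1 count in any library. The part of these shifts in the values of the 10 genes was not tested.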

How the data were processed

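The authors deposited raw counts per gene, one table for each of the 6 libraries, made with featureCounts from reads trimmed by Trim Galore and mapped by HISAT2 to mm39 (GRCm39). The kit was stranded and reads were paired. Tool versions, annotation, strand setting and the handling of multi-mapping reads are not given in the sources used here.

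Each count was normalized with the median-of-ratios size factor that DESeq2 1.42.0 gave its library, and a pseudocount of 1 was added before log2. Counting intervals are 95% exact binomial (Clopper-Pearson) intervals of the ratio of 2 counts and, like the floor of 3 counts, cover counting error only. Effects shared by days or treatments were tested in edgeR 4.0.16 by quasi-likelihood (R 4.3.3; TMM, filterByExpr, day and treatment as factors, 2 residual degrees of freedom, Benjamini-Hochberg over all genes tested, threshold 0.05), with standard errors derived from its F statistic. Nothing in the labels says that libraries are replicates of a condition. The error behind the p-values is therefore what treatment and day as separate factors leave over. It mixes unequal responses over the days with noise and is not a spread between replicates. Groups came from the sample labels. Gene coordinates and merged exon lengths came from GENCODE M39. Tables were made with Python 3.11.15, pandas 2.3.3 and scipy 1.17.1.

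The 10 members, the pathway and marker lists and the tests were chosen with earlier results of these data known. Named pathway genes are those called in the shared fit and, of each list, the 2 with the largest absolute difference per day among genes averaging 100 or more normalized counts. Alternatives were other scalings, pseudocounts of 0.5 and 5, fold rules of 1.5 and 4, other filters, DESeq2's Wald test, fits without the block and leaving out each day. Protein sequences and RefSeq promoter coordinates were not used here. A single gene from the likeness comparison is not reported here.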

Additional observations from a re-analysis of the deposited data

Results flagged for a closer look

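In 6 of the 10 genes a step between days ran in opposite directions in untreated and FGF8 libraries, with counting intervals that excluded 0 in both. The treatments were compared by 1 library per point, and the difference between them was not tested. The share of all genes that met this rule was not computed, so the count says nothing particular about these genes. From day 0 to day 3, Ifih1 changed by -1.07 in untreated and 0.648 in FGF8 libraries on the log2 scale. Over the same step, Dhx58 had -1.12 in untreated and 0.322 in FGF8 libraries. Zbp1 had -0.919 in untreated and 0.304 in FGF8 libraries. Myd88, which shares exonic bases with Acaa1a, had -0.137 in untreated and 0.367 in FGF8 libraries. From day 3 to day 9, Zbp1 had 0.368 in untreated and -1.01 in FGF8 libraries, and Tlr4 had -0.595 in untreated and 0.665 in FGF8 libraries. From day 0 to day 9, Tbk1 had -0.342 in untreated and 0.29 in FGF8 libraries. The steps from day 0 to day 3 share their day 0 libraries with the FGF8 differences at day 0, in which Ifih1, Dhx58, Zbp1 and Myd88 were lower after FGF8.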

How the results depend on the processing

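Scaling moved the median of all genes at day 3 from 0.08 to -0.03 with total counts, and the sign of a difference changed with scaling only for values within 0.1 of 0 as reported (FGF8 against untreated Tbk1 at day 3 and day 9, and steps between days of Mavs, Tbk1, Tlr3, Ifih1, Dhx58 and Myd88). Members passing the rule downward at day 3 numbered 7 at 1.5-fold and 1 at 4-fold. At 1.5-fold, 1 member passed upward at day 3 and 5 members passed downward at day 9. Members passing downward on each of the 3 days numbered 1 with total counts (2-fold), 5 at 1.5-fold and 0 at 4-fold. The shares of all genes passing under these changed rules are not given here, so these counts are not read against a background. For the shared FGF8 effect, members called lower were 6 with DESeq2's Wald test, 0 with DESeq2 size factors in edgeR, 0 without the day block, and 0 to 7 when the libraries of 1 day were left out. All genes called lower were 1221 (DESeq2), 93 (DESeq2 size factors in edgeR), 406 (no filter on low counts), 0 (no day block) and 0 to 1661 (1 day left out), and all genes called higher were 475, 1, 13, 0 and 0 to 569 in that order. Without the treatment block, members called between day 0 and day 3 were 0 lower and 1 higher, and between day 0 and day 9 again 0 lower and 1 higher. The shares of all genes called without that block are not given here. Estimates that changed sign were Zbp1 between day 3 and day 9 (0.0866 without the treatment block) and Tbk1 between day 0 and day 9 (-0.0372 with DESeq2 and with DESeq2 size factors, -0.0177 without the treatment block). The causes were not tested. The libraries were paired by day and not by replicate number, which the labels do not give. Depth limits Tlr2 most, with 24 counts in the FGF8 library of day 9, and 1 library per condition limits every value.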
